A study of Mus musculus with 10 samples.

Results

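The 10 genes described here act on collagen after its chains are made: 4 collagen chaperones of the endoplasmic reticulum (Serpinh1, Crtap, Ppib and Fkbp10), the 5 lysyl oxidases (Lox, Loxl1, Loxl2, Loxl3 and Loxl4) and the procollagen C-proteinase Bmp1. They were chosen by function and found by Ensembl identifier, and 10 of the 40620 genes in the deposited table are these genes. All 10 passed the filter on low counts, which kept 20808 genes. They were followed in MC3T3-E1, a line of mouse pre-osteoblasts from calvaria, of which the study used 1 subclone. Cells were taken when subconfluent and when confluent in growth medium, and after 24 h, 14 d and 21 d in osteogenic medium, which held β-glycerophosphate at 10 mM and ascorbic acid at 50 µg/ml. Each of the 5 stages had 2 libraries, replicates A and B, 10 in all. Nothing in the labels says that A and B were separate cultures, so p-values measure the spread between these libraries, which may be technical.

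Fibrillar collagen is folded in the endoplasmic reticulum, where Serpinh1 (HSP47) binds the triple helix, Crtap and the isomerase Ppib (cyclophilin B) form the prolyl 3-hydroxylation complex with P3h1, and the isomerase Fkbp10 (FKBP65) acts on the hydroxylation of telopeptide lysines. Outside the cell Bmp1 cuts the C-propeptide from procollagen and also cuts the Lox proenzyme, and the lysyl oxidases, which need copper, oxidize lysines so that collagen and elastin molecules become crosslinked. Mutations in the human genes of the 4 chaperones and of BMP1 cause forms of osteogenesis imperfecta, a brittle bone disease.

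The authors' count table held between 44736156 and 162939333 counts per library. The replicates at 24 h were the least alike: the SD of the log2 ratio of A to B over genes was 0.642 at 24 h and between 0.338 and 0.512 elsewhere. At 24 h the median log2 ratio of A to B was 0.114 in the shortest of 4 equal classes of deposited gene length and -0.602 in the longest, and at the other stages these medians lay between -0.0501 and 0.156. The subconfluent, confluent and 24 h libraries carried 1 pair of index sequences and the 14 d and 21 d libraries another, so a difference between these sets of stages cannot be told apart from a difference between sets of libraries. Of 7 osteoblast markers, 6 were above 1 RPKM in every library. The summed level of 5 adipocyte, 4 endothelial and 4 skeletal muscle markers did not exceed 1.13, 0.108 and 0.670 RPKM in any library. The 5 chondrocyte markers summed to between 45.7 and 242 RPKM, mostly Col2a1 (33.1 to 210 RPKM) and Sox9 (12.6 to 36.1). The sum was highest at 14 d, as were Col2a1 and Col9a1, the latter at 0.585 RPKM or less. Sox9 was highest at 21 d, at 36.1 and 35.1 RPKM. Col10a1 was also highest at 21 d, at 1.67 and 5.88 RPKM against 0.118 and 0.212 at 14 d. Acan was at 0.0207 RPKM or less. The 5 blood and macrophage markers summed to between 8.17 and 13.8 RPKM, mostly Itgam (5.0 to 9.9 RPKM) and Csf1r (1.8 to 3.2). Of the same list, Ptprc was at 0 RPKM in every library and Adgre1 at 0.00942 RPKM or less. The 4 markers of proliferating cells summed to between 221 and 229 RPKM in subconfluent cells and between 22.1 and 31.1 at 21 d. The part of these markers in the results below was not tested. In bulk RNA, fewer cells that express a gene and less of its RNA per cell cannot be told apart.

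RefSeq promoter sequences (build GRCm38.p6) were used for 4 of the 10 genes, Serpinh1, Ppib, Crtap and Loxl4. The 250 bases before the start are printed for Serpinh1, the chaperone with the highest level, whose stage means differed least among the 10 genes, and for Loxl4, whose stage means differed most. Both are on the minus strand and read 5′ to 3′, Serpinh1 from chr7:99353240-99353489 and Loxl4 from chr19:42612807-42613056, with capitals for the GC box GGGCGG.
Serpinh1: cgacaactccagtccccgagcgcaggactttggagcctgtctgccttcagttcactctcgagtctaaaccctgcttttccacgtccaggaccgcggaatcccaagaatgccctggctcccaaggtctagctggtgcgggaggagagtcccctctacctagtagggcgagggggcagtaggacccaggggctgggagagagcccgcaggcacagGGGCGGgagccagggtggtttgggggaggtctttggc
Loxl4: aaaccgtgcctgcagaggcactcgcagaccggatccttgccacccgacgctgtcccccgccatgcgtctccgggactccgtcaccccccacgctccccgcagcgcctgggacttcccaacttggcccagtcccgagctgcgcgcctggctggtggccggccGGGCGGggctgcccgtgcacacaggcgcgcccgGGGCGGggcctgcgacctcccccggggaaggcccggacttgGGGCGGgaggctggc
The GC box, searched on both strands, was found 1 time in the Serpinh1 window, 37 bases before the start, and 3 times in the Loxl4 window, 89, 56 and 15 bases before it. It was found 2 times in the Ppib window and 0 times in that of Crtap, and 32.7% of 32851 promoter windows of this length held it. The CCAAT box (CCAAT, in 33.8% of windows) was found 2 times in the Ppib window. The TATA box (TATAAA, in 12.4%) and the core motif of Runx factors (TGTGGT, in 14.0%), which include the osteoblast regulator Runx2, were each found 1 time in the Crtap window. None of these 3 was found in the Serpinh1 and Loxl4 windows. The motifs do not overlap each other in the printed windows, and a match describes the sequence only.

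Levels are given in RPKM, the authors' read counts scaled to gene length and to a read number of the library, so that genes can be set side by side. Serpinh1 had the highest mean over the 10 libraries, 792 RPKM, and was rank 386 among 20795 tested genes with an RPKM value. Ppib followed at 377 RPKM, Fkbp10 at 193, Crtap at 156 and Lox at 96.5. Bmp1 at 41.9 RPKM, Loxl3 at 39.5 and Loxl4 at 31.5 were at similar means, Loxl1 was at 7.83, and Loxl2, at 0.0961 RPKM with 7 to 78 counts per library, was barely detected. Levels between genes depend on the deposited lengths: that of Ppib was 771 bases, against 3305 bases in all its exons in GENCODE vM21, that of Bmp1 3737 against 8870, and that of Loxl3 3255 against 4603. Exons of Ppib share 825 bases with Snx22 on the other strand, those of Loxl3 535 with Htra2, those of Fkbp10 193 with Nt5c3b and those of Loxl2 301 with the antisense gene Gm27177. No source used here states whether counting used strand, so reads of these pairs may be mixed, above all for Loxl2, which had a mean of 31.4 counts per library against 921 for Gm27177.

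Serpinh1 was measured at 859 and 892 RPKM in subconfluent cells (replicates A and B, as in all pairs of values below), 854 and 825 in confluent cells, 715 and 649.9 at 24 h, 738 and 719 at 14 d, and 819 and 846 at 21 d. In RPKM the level was highest in subconfluent and lowest in 24 h cells. Of neighbouring stages in this order of means only confluent and 21 d cells overlapped. The order depends on the scaling, since the fit below, which scales libraries otherwise, put 21 d slightly above subconfluent cells. The stage means differed by at most 1.28-fold, the narrowest range of the 10 genes. No comparison of Serpinh1 passed an adjusted p of 0.05 in edgeR's quasi-likelihood test, which was fitted to the counts of all 10 libraries with Benjamini-Hochberg adjustment over all genes and is the test behind every adjusted p below. Its log2 fold change was 0.04 ± 0.11 (SE) from subconfluent to 21 d cells (edgeR adjusted p = 0.77), with a negative sign under scaling to library size alone and on RPKM, and -0.20 ± 0.11 from confluent to 24 h cells (edgeR adjusted p = 0.30). The latter was -0.33 and passed without replicate A at 24 h (edgeR adjusted p = 0.017), -0.07 without replicate B at 24 h (edgeR adjusted p = 0.39), and -0.35 under library size alone, when it passed (edgeR adjusted p = 0.047). From 24 h to 14 d it was 0.22 ± 0.11 (edgeR adjusted p = 0.22), and 0.34 without replicate A at 24 h, when it passed (edgeR adjusted p = 0.0080), and 0.05 without replicate B (edgeR adjusted p = 0.49).

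Fkbp10 was measured at 211 and 218 RPKM in subconfluent cells, 199.8 and 213 in confluent cells, 202 and 209.8 at 24 h, 198 and 191 at 14 d, and 144 and 144 at 21 d. Both 21 d libraries were below all 8 others, which lay within 191 and 218 RPKM. Fkbp10 fell by 0.51 ± 0.08 on the log2 scale from 14 d to 21 d (edgeR adjusted p = 0.010), a comparison within 1 set of libraries, and by 0.46 ± 0.08 from subconfluent to 21 d cells (edgeR adjusted p = 0.0032). The first call was lost when either subconfluent, 14 d or 21 d library was left out (edgeR adjusted p up to 0.099) and without a filter on low counts (edgeR adjusted p = 0.059), and the second was kept under every alternative at this threshold.

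Crtap was measured at 126 and 136 RPKM in subconfluent cells, 151 and 154 in confluent cells, 181 and 156 at 24 h, 178 and 180.3 at 14 d, and 154 and 145 at 21 d. Subconfluent cells were lowest, both 14 d libraries were above the confluent and 21 d ones, and replicate A at 24 h reached the 14 d level while B did not. Crtap rose from confluent to 14 d cells by 0.45 ± 0.12 on the log2 scale (edgeR adjusted p = 0.025). This call did not hold under scaling to library size alone, on log2 RPKM, without the filter, or without any 1 of the 8 libraries of the stages other than 24 h (edgeR adjusted p up to 0.13). From subconfluent to 21 d cells the log2 fold change was 0.30 ± 0.12 (edgeR adjusted p = 0.069).

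Ppib was measured at 295 and 306 RPKM in subconfluent cells, 317 and 371 in confluent cells, 473 and 346 at 24 h, 396 and 389 at 14 d, and 406 and 466.5 at 21 d. Its replicates were 1.17-fold apart in confluent cells, and at 24 h B was 0.732 times A, so that 24 h overlapped the 14 d and 21 d values. Snx22, with which it shares exon bases, was at 69.9 and 72.3 RPKM in subconfluent cells and 96.0 and 108 at 21 d, and the part of its reads in the Ppib values was not tested. Ppib rose from subconfluent to 21 d cells by 0.66 ± 0.18 on the log2 scale (edgeR adjusted p = 0.020), and the call was lost without either subconfluent library or replicate B at 21 d (edgeR adjusted p up to 0.12). The change from confluent to 14 d cells, 0.41 ± 0.18, did not pass (edgeR adjusted p = 0.13).

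**Figure D1:**
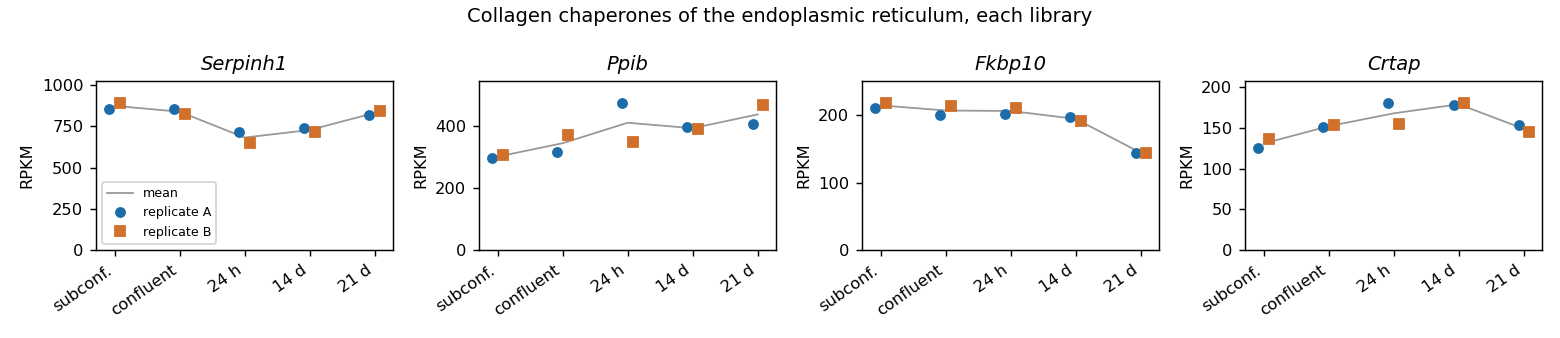
RPKM (y axis, from 0, a separate scale in each panel) of the 4 chaperones at the 5 stages (x axis), with replicate A as circles, B as squares and their mean as a line. Serpinh1 stays between 649.9 and 892 RPKM in all libraries, Fkbp10 drops to 144 RPKM in both 21 d libraries, and the Ppib replicates lie farthest apart at 24 h.

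Lox, the founding member of the oxidase family, was measured at 110 and 104 RPKM in subconfluent cells, 53.6 and 43.9 in confluent cells, 101 and 163.1 at 24 h, 109.8 and 119 at 14 d, and 83.9 and 76.2 at 21 d. Both confluent libraries were below all 8 others, and the 24 h values, the farthest apart of any stage, overlapped those at 14 d. Lox fell by 1.17 ± 0.20 on the log2 scale from subconfluent to confluent cells (edgeR adjusted p = 0.026) and rose by 1.52 ± 0.20 from confluent to 24 h cells (edgeR adjusted p = 0.0079), both within 1 set of libraries. It was also higher at 14 d than in confluent cells, by 1.45 ± 0.20 (edgeR adjusted p = 0.0017). The fall was -1.31 to -1.03 with 1 library left out, and its call was lost without any 1 of the 8 libraries outside 24 h (edgeR adjusted p up to 0.21), under library size alone (edgeR adjusted p = 0.067) and with the replicate letter as a block (edgeR adjusted p = 0.065). The rise at 24 h ran from 1.22 to 1.78 and lost its call without either confluent library (edgeR adjusted p up to 0.072) and in a fit of those 2 stages alone (edgeR adjusted p = 0.26). The rise to 14 d was kept under every alternative at this threshold. From 24 h to 14 d the log2 fold change was -0.07 ± 0.19 (edgeR adjusted p = 0.84), from 14 d to 21 d -0.59 ± 0.19 (edgeR adjusted p = 0.11), and from subconfluent to 21 d cells -0.31 ± 0.19 (edgeR adjusted p = 0.23).

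Loxl4, an oxidase with scavenger receptor domains, was measured at 22.9 and 23.2 RPKM in subconfluent cells, 21.0 and 18.9 in confluent cells, 8.30 and 19.3 at 24 h, 51.9 and 58.5 at 14 d, and 45.5 and 45.9 at 21 d. The 4 libraries of 14 d and 21 d were all above the 6 earlier ones, with at least 45.5 against at most 23.2 RPKM, and replicate A at 24 h was 2.32-fold below B. Loxl4 rose from confluent to 14 d cells by 1.69 ± 0.31 on the log2 scale (edgeR adjusted p = 0.0060), a call kept under every alternative at this threshold, and from 24 h to 14 d by 2.15 ± 0.32 (edgeR adjusted p = 0.0055). The latter was between 1.69 and 2.76 with 1 library left out, and its call was lost only in a fit of those 2 stages alone (edgeR adjusted p = 0.12). From subconfluent to 21 d cells it rose by 1.10 ± 0.31 (edgeR adjusted p = 0.020), a call lost without any 1 library of these 2 stages (edgeR adjusted p up to 0.088) and under library size alone (edgeR adjusted p = 0.065). The value of -0.46 ± 0.30 from confluent to 24 h cells (edgeR adjusted p = 0.39) was -1.10 without replicate B at 24 h, when it passed (edgeR adjusted p = 0.00055), and -0.01 without replicate A. From 14 d to 21 d Loxl4 was at -0.35 ± 0.30 (edgeR adjusted p = 0.58).

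Loxl3, another oxidase with scavenger receptor domains, was measured at 47.8 and 50.4 RPKM in subconfluent cells, 42.8 and 45.0 in confluent cells, 38.3 and 39.3 at 24 h, 35.2 and 34.0 at 14 d, and 30.6 and 31.5 at 21 d. In RPKM each stage lay below the one before it with no overlap between neighbours. Among the 10 genes only Loxl3 had such an order in time. Loxl3 fell by 0.54 ± 0.08 on the log2 scale from subconfluent to 21 d cells (edgeR adjusted p = 0.00089), a call kept under every alternative at this threshold. The single steps did not pass in the fit, which scales libraries otherwise than RPKM. They were -0.19 ± 0.08 from subconfluent to confluent cells (edgeR adjusted p = 0.27) and -0.09 ± 0.08 from confluent to 24 h cells (edgeR adjusted p = 0.53). The later steps were -0.04 ± 0.08 from 24 h to 14 d (edgeR adjusted p = 0.77) and -0.23 ± 0.08 from 14 d to 21 d (edgeR adjusted p = 0.12). Htra2, which shares exon bases with Loxl3, was at 61.2 and 65.3 RPKM in subconfluent cells and 36.5 and 38.1 at 21 d, and the part of its reads in the Loxl3 values was not tested.

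Loxl1, the oxidase known for its part in elastic fibres, was measured at 12.4 and 12.6 RPKM in subconfluent cells, 7.28 and 6.38 in confluent cells, 5.67 and 5.86 at 24 h, 7.34 and 7.42 at 14 d, and 6.73 and 6.57 at 21 d. Subconfluent cells stood apart, with all other libraries at or below 7.42 RPKM. Loxl1 fell by 0.90 ± 0.09 on the log2 scale from subconfluent to confluent cells (edgeR adjusted p = 0.0029) and by 0.80 ± 0.09 from subconfluent to 21 d cells (edgeR adjusted p = 0.00026), and both calls were kept under every alternative at this threshold. It rose by 0.48 ± 0.09 from 24 h to 14 d (edgeR adjusted p = 0.012), a call lost without either 14 d library (edgeR adjusted p up to 0.10) and in a fit of those 2 stages alone. The rise of 0.33 ± 0.09 from confluent to 14 d cells (edgeR adjusted p = 0.026) did not hold under library size alone, on log2 RPKM, without the filter, or without any 1 of 7 libraries, all those outside 24 h other than confluent replicate A (edgeR adjusted p up to 0.16, and 0.54 under library size alone).

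Loxl2 was at or below 0.178 RPKM in every library. Its counts were 39 and 9 in subconfluent cells, 7 and 35 in confluent cells, 22 and 19 at 24 h, 78 and 23 at 14 d, and 24 and 58 at 21 d, where the differences within a stage follow the library sizes. The fitted log2 fold changes of 1.74 ± 0.34 from confluent to 14 d cells (edgeR adjusted p = 0.0073), 1.77 ± 0.33 from 24 h to 14 d (edgeR adjusted p = 0.013) and 1.17 ± 0.33 from subconfluent to 21 d cells (edgeR adjusted p = 0.021) passed. The first call was lost without replicate A at 14 d (edgeR adjusted p = 0.055), the second without either 14 d library (edgeR adjusted p up to 0.091) and in a fit of those 2 stages alone, and the third without any 1 library of its stages (edgeR adjusted p up to 0.13), in DESeq2 and without the filter. Gm27177, antisense to it, was at 1.51 and 1.27 RPKM in subconfluent cells, 1.96 and 1.81 in confluent cells, 3.33 and 2.30 at 24 h, 2.68 and 2.36 at 14 d, and 2.46 and 2.38 at 21 d, and the part of its reads in the Loxl2 values was not tested.

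Bmp1 was measured at 40.0 and 40.4 RPKM in subconfluent cells, 40.5 and 38.4 in confluent cells, 35.4 and 41.5 at 24 h, 58.5 and 57.9 at 14 d, and 34.1 and 32.3 at 21 d. Both 14 d libraries were above all others and both 21 d libraries below all others. Bmp1 rose from 24 h to 14 d by 0.73 ± 0.08 on the log2 scale (edgeR adjusted p = 0.0019) and was 0.78 ± 0.08 higher at 14 d than in confluent cells (edgeR adjusted p = 0.00060). It then fell by 0.89 ± 0.08 from 14 d to 21 d (edgeR adjusted p = 0.00095), within 1 set of libraries. These calls were kept under every alternative at this threshold, except that the first was lost in a fit of those 2 stages alone (edgeR adjusted p = 0.13). From subconfluent to 21 d cells the log2 fold change was -0.16 ± 0.08 (edgeR adjusted p = 0.14).

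**Figure D2:**
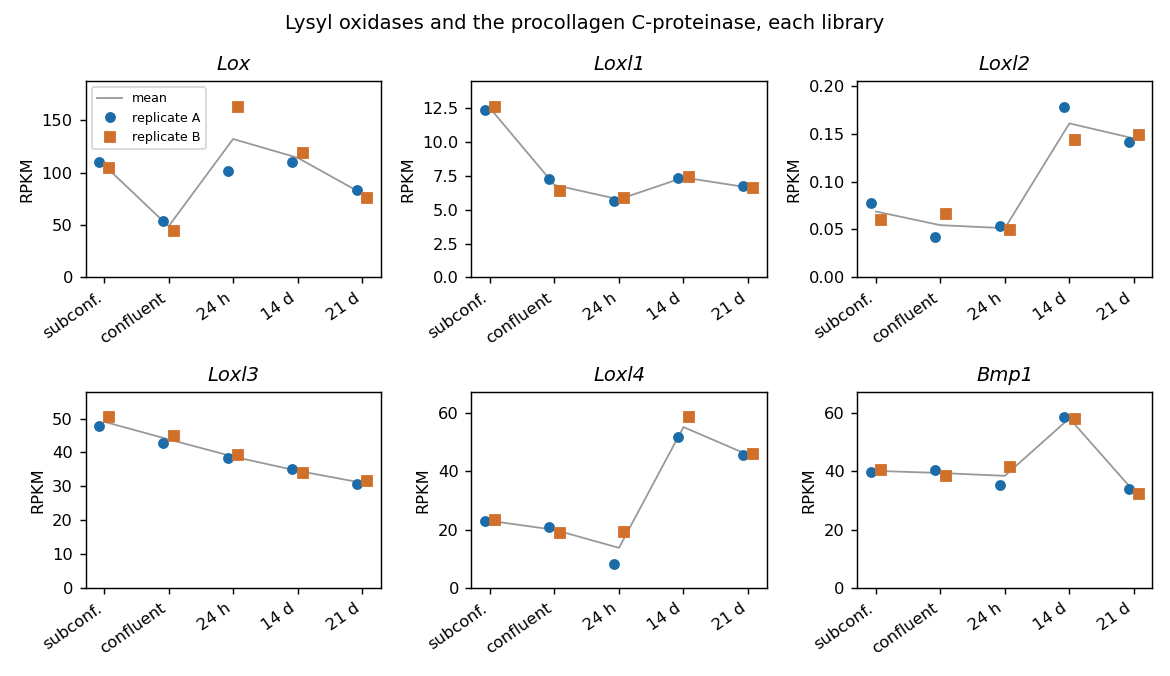
RPKM (y axis, from 0, a separate scale in each panel) of the 5 lysyl oxidases and Bmp1 at the 5 stages (x axis), with replicate A as circles, B as squares and their mean as a line. Lox is lowest in confluent cells, Loxl4 is at 45.5 RPKM or more from 14 d on, Loxl3 goes down from stage to stage, and Bmp1 is highest at 14 d.

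Counted over the 10 genes, 0 rose and 2 fell from subconfluent to confluent cells (Lox and Loxl1), where 1.95% of all tested genes rose and 1.34% fell. From confluent to 24 h cells 1 rose (Lox) and 0 fell, against 3.59% and 1.57% of all genes. From 24 h to 14 d 4 rose (Loxl1, Loxl2, Loxl4 and Bmp1) and 0 fell, against 9.08% and 8.21%. From 14 d to 21 d 0 rose and 2 fell (Fkbp10 and Bmp1), against 3.77% and 5.95%. From confluent to 14 d cells 6 rose (Crtap, Lox, Loxl1, Loxl2, Loxl4 and Bmp1) and 0 fell, against 16.9% and 15.3%. From subconfluent to 21 d cells 3 rose (Ppib, Loxl2 and Loxl4) and 3 fell (Fkbp10, Loxl1 and Loxl3), against 27.3% and 23.5%. The F test over the 5 stages passed for 8 of the 10 genes, all but Serpinh1 and Ppib (edgeR adjusted p = 0.17 and 0.066), against 48.9% of all genes. The median log2 fold change of the 10 genes was 0.43 from confluent to 14 d cells and -0.06 from subconfluent to 21 d cells, against 0.03 and 0.04 over all tested genes. In the directions with 0 calls in edgeR, 0 of the 10 genes had an unadjusted p under 0.05, and DESeq2 called 0 as well, while limma on log2(RPKM + 1) and log2(RPKM + 0.1) and edgeR under library size alone called 1 fall from confluent to 14 d cells (Loxl3). Other calls in these directions were 1 fall from confluent to 24 h cells under library size alone and without replicate A at 24 h (Serpinh1), 1 without replicate B at 24 h (Loxl4), and 1 rise from 14 d to 21 d in a fit of those 2 stages alone (Serpinh1, edgeR adjusted p = 0.033). Scaling to library size alone changed the balance of calls over all genes, from 1889 higher and 1708 lower to 1368 and 2867 from 24 h to 14 d, from 3508 and 3180 to 2364 and 4971 from confluent to 14 d cells, from 746 and 326 to 489 and 420 from confluent to 24 h cells, from 784 and 1239 to 979 and 938 from 14 d to 21 d and from 5671 and 4882 to 4708 and 5752 from subconfluent to 21 d cells, and moved the median over all genes to -0.20 from confluent to 14 d cells.

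Because the 24 h replicates differed so much and shared in the estimate of spread, the counts were also made without the 24 h libraries. From 14 d to 21 d 6 genes then fell, the 2 named above with Crtap, Lox, Loxl3 and Loxl4, and 0 rose, where 15.6% of 19994 tested genes fell and 11% rose. The log2 fold change was -0.34 ± 0.06 for Crtap (edgeR adjusted p = 0.011), -0.58 ± 0.11 for Lox (edgeR adjusted p = 0.0088), -0.22 ± 0.06 for Loxl3 (edgeR adjusted p = 0.031) and -0.34 ± 0.08 for Loxl4 (edgeR adjusted p = 0.026). From confluent to 14 d cells 7 genes rose, Ppib being added, against 26.6% of all genes, and 0 fell, against 26.1%. From subconfluent to 21 d cells 4 rose, Crtap being added, against 34%, and 5 fell, with Lox and Bmp1 added, against 32.1%. Serpinh1 was then the 1 gene of the 10 with no call in these 3 comparisons, with log2 fold changes of 0.12 ± 0.05 (edgeR adjusted p = 0.092), -0.01 ± 0.05 (edgeR adjusted p = 0.92) and 0.03 ± 0.05 (edgeR adjusted p = 0.53).

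**Figure D3:**
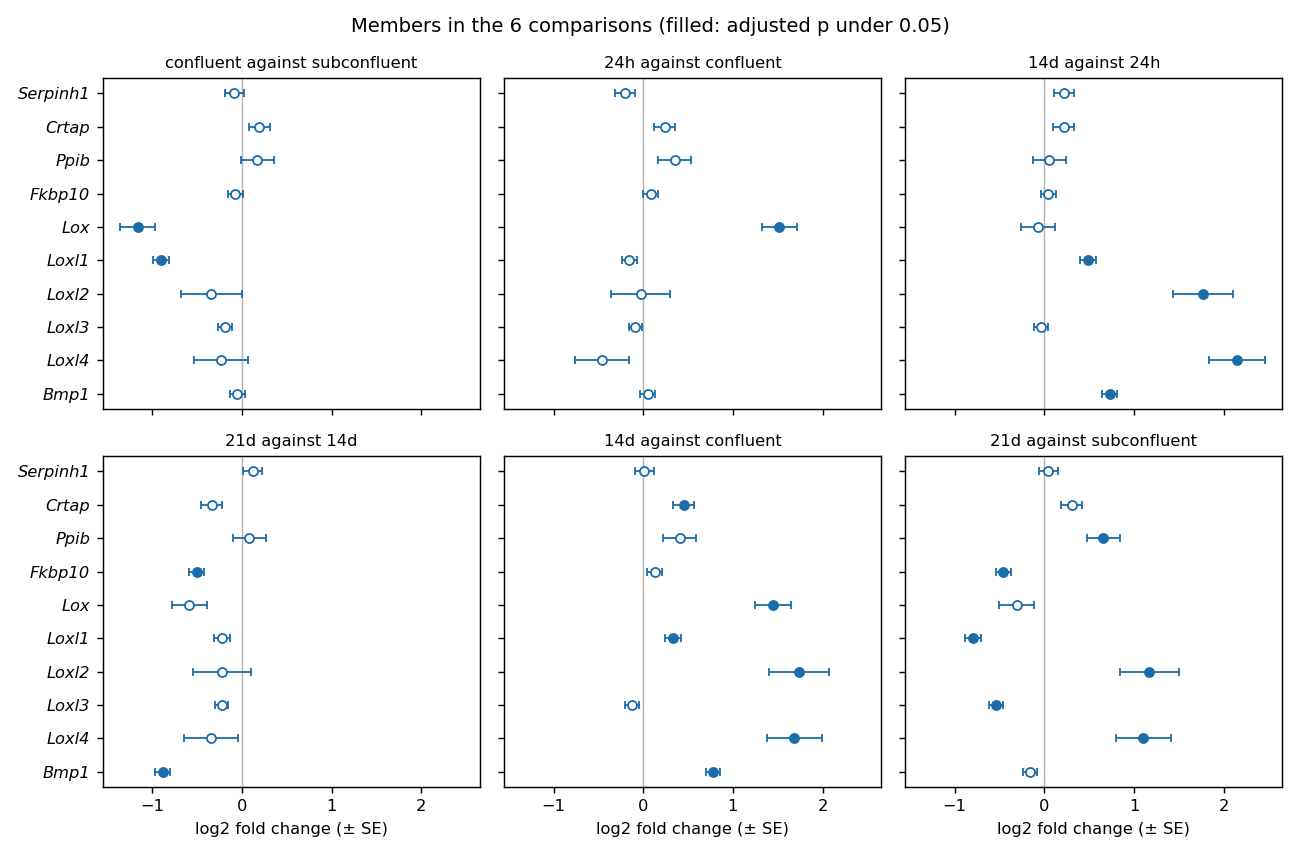
Log2 fold change (x axis, bars are ± SE of edgeR's quasi-likelihood fit) of each of the 10 genes (y axis) in the 6 comparisons, with filled circles for an adjusted p under 0.05. All filled circles lie right of 0 in the comparisons of 14 d with 24 h and with confluent cells, and the 2 filled circles of 21 d against 14 d lie left of 0.

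The lysyl oxidases summed to 193 and 191 RPKM in subconfluent cells, 125 and 114 in confluent cells, 154 and 228 at 24 h, 204 and 219 at 14 d, and 167 and 160.3 at 21 d. Lox made up 55.9% ± 1.58 (SD, n = 2) of this sum in subconfluent cells, 40.7% ± 3.21 in confluent cells, 68.8% ± 4.02 at 24 h, 54.0% ± 0.369 at 14 d and 48.9% ± 1.95 at 21 d. It was the largest share in every library other than confluent replicate B, in which Loxl3 had 39.4% and Lox 38.4%. Loxl4 made up 11.8% and 12.2% in subconfluent and 16.7% ± 0.204 in confluent cells, 6.94% ± 2.17 at 24 h, 26.1% ± 0.979 at 14 d and 28.0% ± 0.995 at 21 d. Loxl3 went from 25.6% ± 1.20 in subconfluent cells and 36.8% ± 3.57 in confluent cells to 16.4% ± 1.19 at 14 d and 19.0% ± 0.903 at 21 d. So Loxl3 exceeded Loxl4 in each of the 6 libraries up to 24 h and Loxl4 exceeded Loxl3 in each of the 4 later ones, a change of order that coincides with the change of library set. By counts, without length correction, the mean Loxl3 share was 29.7% in confluent cells and 12.3% at 14 d and that of Loxl4 17.3% and 25.2%, the same order. No test was made on shares. Loxl1 made up 6.51% ± 0.143 in subconfluent cells and 3.49% ± 0.141 at 14 d, and Loxl2 less than 0.1% throughout.

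**Figure D4:**
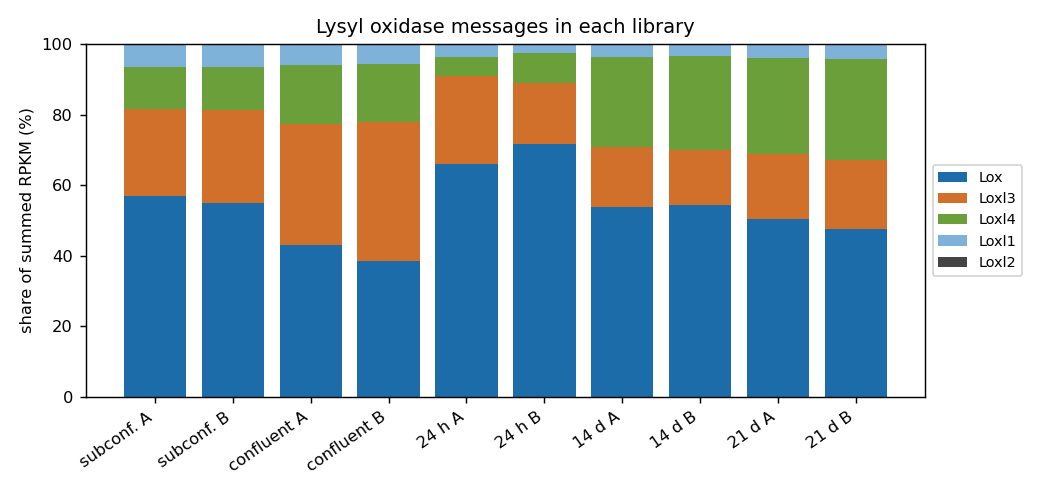
Share of each lysyl oxidase in the summed RPKM of the 5 (y axis, percent) in each of the 10 libraries (x axis), as stacked bars. Lox is widest in the 24 h libraries, at 66.0% and 71.7%, and Loxl4 exceeds Loxl3 only in the 14 d and 21 d libraries.

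The collagen I genes, which encode the main substrate, were far above the chaperones. Col1a1 was at 5655 and 5442 RPKM in subconfluent cells, 6278 and 6152 in confluent cells, 3788 and 6406 at 24 h, 10420 and 8996 at 14 d, and 5287 and 4900.0 at 21 d. Col1a1 rose by 0.86 ± 0.21 on the log2 scale from confluent to 14 d cells (edgeR adjusted p = 0.019) and fell by 1.004 ± 0.211 from 14 d to 21 d (edgeR adjusted p = 0.026). Relative to the mean RPKM of Col1a1 and Col1a2, Serpinh1 was at 18.7% and 20.0% in subconfluent cells, 17.7% and 17.5% in confluent cells, 23.4% and 13.1% at 24 h, 9.31% and 10.3% at 14 d, and 19.6% and 21.5% at 21 d. Both 14 d ratios were below those of all 8 other libraries. The same held for Fkbp10, at 2.61% ± 0.164 (SD, n = 2) at 14 d against 4.73% ± 0.209 in subconfluent and 3.55% ± 0.148 in 21 d cells, for Ppib, at 5.27% ± 0.401 against 6.64% ± 0.328 and 10.8% ± 1.51, and for Crtap, at 2.41% ± 0.232 against 2.89% ± 0.228 and 3.67% ± 0.00436. The stage mean of Bmp1 was also lowest at 14 d, at 0.783% ± 0.0631 of collagen I, but its 2 ratios there overlapped those of confluent and 21 d cells. With Col1a2 alone as denominator the Bmp1 mean was 1.12% at 14 d and 1.09% at 21 d. Lox was at 1.54% ± 0.220 at 14 d, above the 1.02% ± 0.124 of confluent cells and below the 2.37% ± 0.0377 of subconfluent cells. With Col1a1 or Col1a2 alone as denominator the Serpinh1 ratio at 14 d was 7.54% or 14.0%, and the stage mean was lowest at 14 d for all 4 chaperones with either. All these ratios share a denominator, and both collagen I genes were highest at 14 d, so the low 14 d ratios of the 4 chaperones are not separate results. The level of Crtap itself had its highest stage mean at 14 d, 179 RPKM. These ratios were not tested, and at 24 h the replicates differed by up to 2.2-fold.

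**Figure D5:**
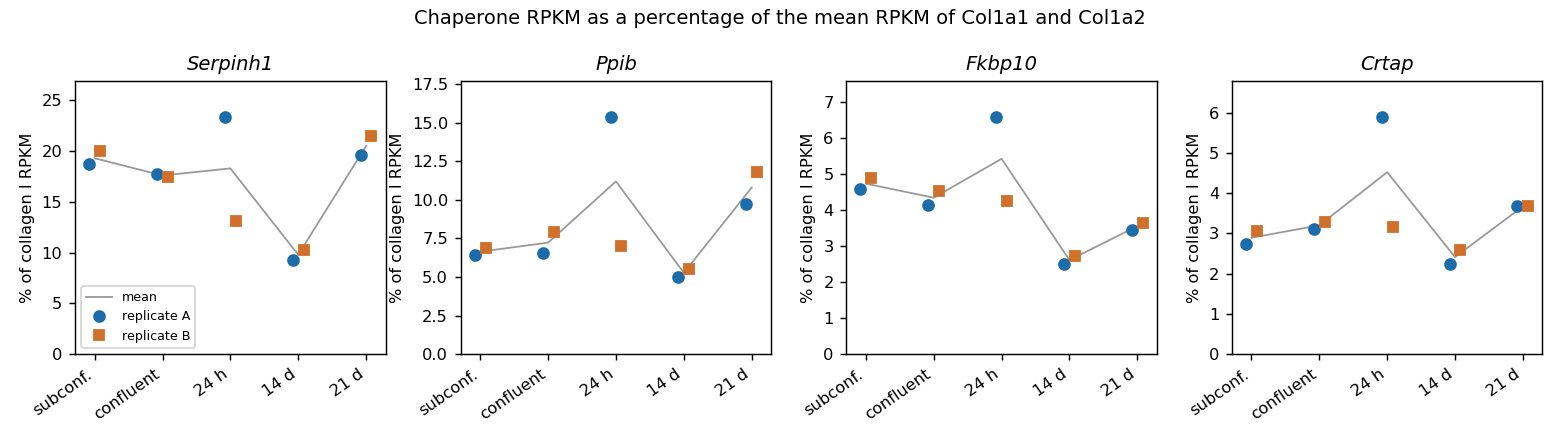
RPKM of each chaperone as a percentage of the mean RPKM of Col1a1 and Col1a2 (y axis, from 0, a separate scale in each panel) at the 5 stages (x axis), with replicate A as circles, B as squares and their mean as a line. In each panel both 14 d libraries are the lowest, and the 24 h replicates are the farthest apart.

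The other genes of the pathway were counted from lists. Of 16 genes of collagen folding and export, 7 rose and 0 fell from confluent to 14 d cells (9 and 0 at an unadjusted p under 0.05 in edgeR, 8 and 0 in DESeq2), against 16.9% and 15.3% of all genes, and 9 rose and 1 fell from subconfluent to 21 d cells, against 27.3% and 23.5%. Among the latter, Tmem38b, an ion channel of the endoplasmic reticulum, rose by 1.39 ± 0.16 on the log2 scale (edgeR adjusted p = 0.00029), Creb3l1, a transcription factor of secretory cells, by 0.90 ± 0.11 (edgeR adjusted p = 0.00039) and Fkbp7, an isomerase related to Fkbp10, by 0.87 ± 0.16 (edgeR adjusted p = 0.0036). Kdelr2, the receptor that returns proteins such as HSP47 to the endoplasmic reticulum, fell by 0.39 ± 0.12 (edgeR adjusted p = 0.034). Colgalt2, which galactosylates hydroxylysine, also passed, but on 2 and 0 counts in subconfluent and 8 and 28 at 21 d.

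Of 7 genes of procollagen processing 4 were tested, and from subconfluent to 21 d cells Adamts2, the N-proteinase, rose by 1.32 ± 0.12 (edgeR adjusted p = 0.00010), while Pcolce2, an enhancer of Bmp1, fell by 1.13 ± 0.12 (edgeR adjusted p = 0.00025) and Adamts14 fell by 1.05 ± 0.24 (edgeR adjusted p = 0.0083). Of 12 partners of crosslinking, which include lysyl hydroxylases, copper carriers and matrix proteins, 6 rose and 3 fell. Fn1, fibronectin, rose by 2.56 ± 0.31 (edgeR adjusted p = 0.00044), Fmod, a collagen-binding proteoglycan, rose by 0.88 ± 0.10 (edgeR adjusted p = 0.00026), and Efemp2, which brings Lox to elastin, fell by 0.94 ± 0.16 (edgeR adjusted p = 0.0021). Eln, elastin itself, passed on 1 and 0 counts in subconfluent and 17 and 47 at 21 d, at most 0.231 RPKM. Of 5 fibrillar collagen genes 0 rose and 1 fell, Col5a2 by 0.52 ± 0.18 (edgeR adjusted p = 0.049), and 2 were higher at an unadjusted p under 0.05 and in DESeq2. In the same comparison the members' 3 rises and 3 falls and the 9 rises and 1 fall of the folding list stand beside 27.3% and 23.5% of all genes. Without the 24 h libraries the counts from subconfluent to 21 d cells were 10 and 3 for folding and export, 2 and 2 for processing, 7 and 4 for crosslinking partners and 2 and 1 for the collagens, against 34% and 32.1% of all genes. From 14 d to 21 d, where 0 rose and 2 fell on the folding list in edgeR (1 and 5 at an unadjusted p under 0.05 and in DESeq2), against 3.77% and 5.95% of all genes, 2 rose and 7 fell without them, against 11% and 15.6%.

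The genes most like Serpinh1 in log2(RPKM + 1) over the 10 libraries, among 10981 genes with a mean of at least 5 RPKM, were Socs3 (Pearson r = 0.955), an inhibitor of cytokine signalling, and the histone H2B genes Hist1h2bn, Hist1h2bj, Hist1h2bk and Hist1h2bb (r = 0.932, 0.922, 0.916 and 0.900). Socs3 had stage means of 28.2, 20.5, 9.68, 13.4 and 20.7 RPKM in order of time, so it varied more than Serpinh1 did. Among the genes most like Lox were Pak1 (r = 0.923), Tent5b (r = 0.861), Zfp703 (r = 0.841) and Adamts1 (r = 0.830). Among the 10 genes, Loxl2 and Loxl4 (r = 0.872) and Fkbp10 and Loxl3 (r = 0.826) were the most alike pairs, and Ppib and Loxl3 (r = -0.776) the least. The first of these r values rests on a barely detected gene, since Loxl2 was at 0.178 RPKM or less and may hold reads of Gm27177. These r values rest on RPKM, without the scaling of the fit, in 10 libraries of 5 stages that differ in depth. No p is given.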

How the data were processed

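RNA of 10 MC3T3-E1 libraries was sequenced as 51 bp paired-end reads. Per the labels, mm10 was the build, and TopHat2 2.0.9, FastQC and R 3.0.1 are named in the submitters' processing notes. The counting tool and its strand setting are not given in the sources used here. The authors deposited raw read counts for 40620 genes and RPKM values for 40602 complete rows, which are the counts scaled to a deposited gene length and to a read number that is 1.44 to 1.60 times smaller than the counts' sum. For the 2 libraries sequenced in 2 runs the merged column was used.

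Counts were filtered with filterByExpr, scaled by TMM and fitted to all 10 libraries with edgeR 4.0.16 (quasi-likelihood, 5 groups, R 4.3.3), and a gene passed at a Benjamini-Hochberg adjusted p under 0.05. Standard errors are the log2 fold change over the square root of F. The study's methods give no test for these data, so the design is not theirs. RPKM gave levels, shares and ratios, without tests. DESeq2 1.42.0 and limma 3.58.1 on log2(RPKM + 1) and log2(RPKM + 0.1), other scalings, filters and sample sets, a replicate block and the omission of each library were alternatives. The fits were tested on simulated data drawn with the same spread for all genes and stages. That test does not cover the wider spread between the 24 h replicates. Symbols and coordinates came from GENCODE vM21 (GRCm38), which gave a symbol to 39632 identifiers.

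The members and lists were chosen with earlier results of these data known. All 10 members are named, with up to 4 genes of each list, those with the largest change among genes that passed from subconfluent to 21 d cells (Kdelr2 was added after its value was seen), and the 5 genes most like Serpinh1 and Lox, of which 1 is not reported here. The counts of the lists without the 24 h libraries were added after the data were seen.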

Additional observations from a re-analysis of the deposited data

How the results depend on the processing

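Of the 21 calls among the 10 genes, 8 were kept under every alternative at an adjusted p under 0.05, and 0 changed direction. The numbers of genes called that moved by more than 1.5 times are as follows. From subconfluent to confluent cells 2 became 1 under library size alone and with the replicate letter as a block. The number was also 1 at an adjusted p under 0.01 and above 2-fold. Over all genes 405 higher and 278 lower became 305 and 159 under library size alone. From confluent to 24 h cells 1 became 2 under library size alone and 0 in a fit of the 2 groups, in which edgeR's smallest adjusted p for any gene was 0.074. From 24 h to 14 d 4 became 0 in a fit of the 2 groups, and 2 at an adjusted p under 0.01 and above 2-fold. In the fit of these 2 groups the calls over all genes went from 1889 higher and 1708 lower to 265 and 54. From 14 d to 21 d 2 became 5 in DESeq2, and 1 without the filter and at an adjusted p under 0.01. The number was 7 in a fit of the 2 groups, 6 without the 24 h libraries and 0 above 2-fold. Over all genes 784 higher and 1239 lower of 20808 became 1299 and 1963 of 29687 in DESeq2. Without the filter they became 678 and 851 of 29687. In a fit of the 2 groups they became 2886 and 2984 of 19239, and without the 24 h libraries 2195 and 3120 of 19994. From confluent to 14 d cells 6 became 3 above 2-fold, and from subconfluent to 21 d cells 6 became 3 at an adjusted p under 0.01 and 2 above 2-fold. With 1 library left out the numbers ran from 1 to 2, 0 to 4, 2 to 6, 1 to 6, 3 to 7 and 3 to 9 in these 6 comparisons in the order given, and from 5 to 10 in the F test (8 with all libraries), where a stage left with 1 library is assumed to vary like the others. The numbers called over all tested genes moved between these fits as well, so a changed number of members is not particular to them. Shares of all genes at an adjusted p under 0.01 and above 2-fold were not counted. The cause was not tested.

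The log2 fold change of Serpinh1 from subconfluent to 21 d cells, 0.04, was -0.11 under library size alone, -0.0724 on log2(RPKM + 1) and -0.0725 on log2(RPKM + 0.1), and -0.00056 to 0.068 with 1 library left out. That of Lox from 24 h to 14 d, -0.07, was -0.34 to 0.20 with 1 library left out. The correlation of the A to B ratios between stages ran from -0.322 to 0.118. This does not exclude pairing by letter, since a shared effect can be small beside the spread between libraries. Within each set of libraries the letter also went with the index sequence. The replicate block changed the number of members called only from subconfluent to confluent cells, where Lox was at -1.16 (edgeR adjusted p = 0.065). Over all genes the block lowered the number of calls in every comparison. From subconfluent to confluent cells the calls went from 405 higher and 278 lower to 232 and 119. Lysyl oxidase shares by counts moved beyond 1 SD in 16 of 25 values, and ratios to Col1a1 or Col1a2 alone in 25 and 27 of 30. At the depth of these libraries Loxl2 had as few as 7 counts.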
